A study of Mus musculus with 10 samples.

Results

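The mitochondrial genome of the mouse carries 37 genes whose symbols begin with mt-, and these were followed here in RNA sequencing of colon crypts, the pits of the gut lining at whose base its stem cells sit. Gene symbols were matched to the Ensembl gene IDs of the count table, and every gene with that prefix was taken, whatever its level. Of the 37, the 13 protein-coding genes and the 2 ribosomal RNA genes had values, which makes 15 of the 33632 gene IDs in the table. The 22 transfer RNA genes were not analysed here.

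There were 5 libraries labelled flox, from mice with the genotype Sox21fl/fl, and 5 labelled CKO, from mice with the genotype Lgr5-EGFP-IRES-CreERT2/+;Sox21fl/fl. In both groups loxP sites flank Sox21, and the labels of both give a normal diet and a normal liver. The CKO mice alone carried the Cre recombinase, which is made from the Lgr5 locus, so that a deletion can arise only in Lgr5-positive cells and only once tamoxifen has been given. The question set by the design is what loss of the transcription factor Sox21 changes in the crypt. Since only CKO carried the Lgr5-EGFP-IRES-CreERT2 allele, an effect of that allele and an effect of Sox21 loss cannot be told apart. Age, tamoxifen schedule and the number of animals behind each library are not given in the labels. The p-values therefore reflect how far these libraries differ among themselves.

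Mitochondrial DNA is transcribed from both strands into long precursors that are cut into messenger, ribosomal and transfer RNAs. Its 13 proteins are all subunits of the respiratory chain and of ATP synthase, where they are assembled with many more subunits that are encoded in the nucleus. The 2 ribosomal RNAs, from mt-Rnr1 and mt-Rnr2, form the core of the mitochondrial ribosome that makes those 13 proteins. All of the genes measured here except mt-Nd6 are transcribed from the heavy-strand promoters, so their RNAs start from shared precursors and come to differ by processing and stability. Colonocytes, which burn butyrate from the gut flora, are rich in mitochondria.

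The flox libraries held 21414122 to 23407565 counts each and the CKO libraries 18926634 to 23642415. The counts are whole reads with no molecular identifiers, so an interval on a share covers counting error only; the 95% Wilson interval of the summed share was at most 0.193% of its value to each side, and that of mt-Nd4l, the gene with the fewest counts, at most 12.2%. Flox 1 and flox 4 stood apart from the other 8 libraries in mitochondrial share, as given below, and the trimmed mean of M values gave them scaling factors of 0.585 and 0.605, against 0.965 to 1.28. Sox21 counts were 25, 184, 91, 36 and 114 in flox 1 to 5 and, for CKO 1 to 5, 178, 186, 98, 64 and 149, and the log2 fold change was 0.38 ± 0.34 (SE) at an edgeR adjusted p of 0.577. This transcript is thus no check on the labels, and both group names stand for what the libraries are labelled as. Colonocyte markers were all detected, at a summed 14067 to 31398 CPM (counts scaled to the size of the library), against 12.9 to 60.0 CPM for markers of T and NK cells.

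Reads of 6 of the 13 mRNAs could also be counted on pseudogenes, because the nuclear genome holds stretches copied from mitochondrial DNA. Every mt- transcript was aligned to all other mouse transcripts of GENCODE release M21 (GRCm38), and 7 pseudogenes matched a member with at least 99% identity over at least 200 bases. Of these, 6 had counts. Gm28661 equals the first 681 of 684 bases of mt-Co2, Gm10925 the first 678 of 681 bases of mt-Atp6, Gm28437 the first 783 of 784 bases of mt-Co3, and Gm10222 the first 294 of 297 bases of mt-Nd4l, each without a mismatch. Gm28439 equals the first 876 bases of mt-Nd4 and has no values here. The other 31 matches were below 99% identity.

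The ends of mt-Co2 and of its copy are shown because they differ only by the last 3 bases of the annotated gene, printed in capitals (both from the GENCODE transcripts, 5′ to 3′). Each line starts at base 622 of its transcript.
mt-Co2: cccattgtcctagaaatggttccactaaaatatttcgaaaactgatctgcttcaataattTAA
Gm28661: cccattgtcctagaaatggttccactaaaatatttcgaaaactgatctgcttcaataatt

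The 2 remaining copies with counts each carry 1 mismatch. Gm29216 matches 483 bases at the 3′ end of mt-Co1 at 99.8% identity, with the substitution A1066T, and Gm28438 matches 345 of the 348 bases of mt-Nd3 at 99.7% identity, with the substitution T3C. Positions count from 1 at the 5′ end of the mitochondrial gene, the mitochondrial base is named first, and the differing base is in capitals in the lines that follow. The windows start at base 1063 of mt-Co1 and at base 1 of mt-Nd3.
mt-Co1: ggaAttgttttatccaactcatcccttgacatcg
Gm29216: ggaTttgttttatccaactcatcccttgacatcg
mt-Nd3: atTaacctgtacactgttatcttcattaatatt
Gm28438: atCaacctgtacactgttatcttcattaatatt
Away from that base the pairs are identical, so short reads from the gene and from the copy cannot be told apart there. The values below are therefore given both as deposited and with the counts of each copy added to its gene, a choice made after the counts were seen.

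Neighbouring genes also share bases. mt-Atp8 and mt-Atp6, the 2 mitochondrial subunits of ATP synthase (complex V), lie on 1 transcript and overlap by 43 bases, and mt-Nd4l and mt-Nd4, subunits of NADH dehydrogenase (complex I), overlap by 7 bases. The whole of mt-Atp8 (204 bases), the first 120 bases of mt-Atp6, the last 120 of mt-Nd4l and the first 120 of mt-Nd4 are shown with the shared bases in capitals, since they bear on the ratios within these pairs.
mt-Atp8: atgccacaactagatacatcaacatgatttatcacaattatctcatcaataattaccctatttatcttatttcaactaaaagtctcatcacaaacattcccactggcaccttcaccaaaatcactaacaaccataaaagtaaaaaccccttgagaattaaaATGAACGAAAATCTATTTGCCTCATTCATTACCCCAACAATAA
mt-Atp6: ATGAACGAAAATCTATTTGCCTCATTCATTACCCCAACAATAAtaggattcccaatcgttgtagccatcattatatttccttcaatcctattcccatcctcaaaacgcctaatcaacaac
mt-Nd4l: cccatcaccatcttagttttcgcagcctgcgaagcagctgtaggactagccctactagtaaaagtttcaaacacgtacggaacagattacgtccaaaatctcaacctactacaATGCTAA
mt-Nd4: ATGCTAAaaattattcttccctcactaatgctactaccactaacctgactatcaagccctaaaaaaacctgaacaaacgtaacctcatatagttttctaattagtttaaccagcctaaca
A further 14 bases are common to mt-Nd5 and mt-Nd6, which lie on opposite strands. The strand setting of the counting is not given in the sources used here, so reads of mt-Nd6 and reads of the heavy-strand RNA opposite it cannot be told apart.

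The 15 mitochondrial genes took between 4.30% and 29.3% of all counts, a 6.83-fold range between libraries of 1 tissue. Their share was 26.5%, 4.88%, 9.03%, 29.3% and 7.33% in flox 1 to 5 and, for CKO 1 to 5, 6.38%, 4.30%, 5.61%, 11.8% and 4.43%. Flox 1 and flox 4 were highest, CKO 4 came next, and flox 2 was below 3 of the CKO libraries, so the groups overlapped. The mean was 15.4% ± 11.6 in flox and 6.51% ± 3.10 in CKO (SD, n = 5 each), a difference of -8.91 percentage points that shrank to -0.57 without flox 1 and flox 4. In bulk tissue, fewer mitochondria-rich cells and less mitochondrial RNA per cell cannot be told apart.

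The 6 pseudogenes took 11.6%, 2.10%, 3.84%, 10.1% and 2.78% of all counts in flox 1 to 5 and, for CKO 1 to 5, 2.66%, 1.76%, 2.51%, 5.31% and 2.10%. They followed the mitochondrial genes closely: of every 100 counts on genes and copies together, 25.7 to 32.1 lay on the copies in each of the 10 libraries. Genes and copies together reached 38.1% for flox 1, 39.5% for flox 4 and 6.06% to 17.1% for the rest.

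**Figure D1:**
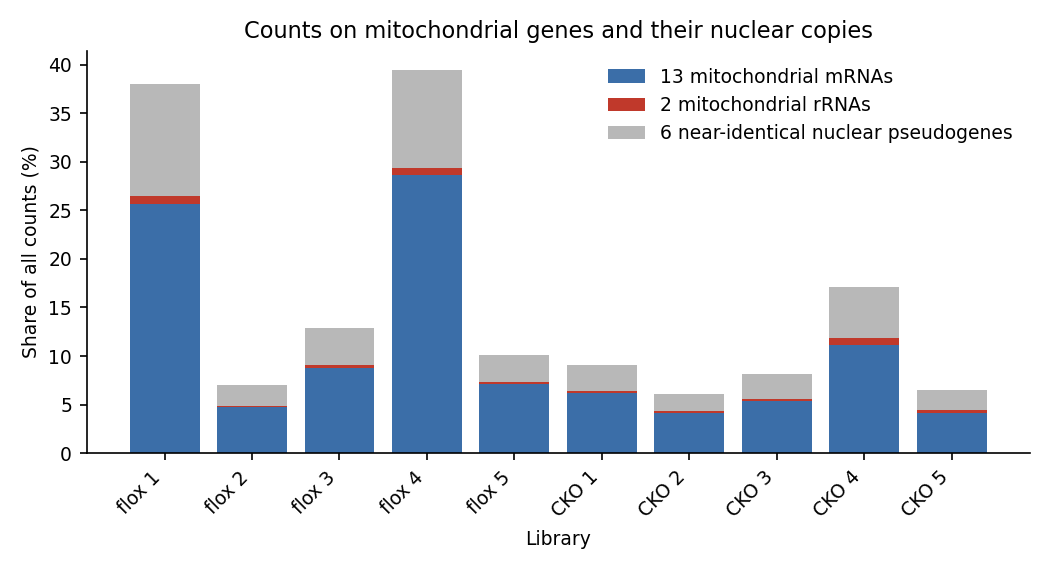
Share of all counts (%) on the 13 mitochondrial mRNAs (blue), the 2 mitochondrial rRNAs (red) and the 6 near-identical nuclear pseudogenes (grey), stacked, for each of the 10 libraries. Flox 1 and flox 4 reach 38.1% and 39.5% in total, the other 8 libraries 6.06% to 17.1%, and the grey part keeps pace with the blue one.

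How far each mRNA shared its counts with its copy differed widely. mt-Co2, which encodes a core subunit of cytochrome c oxidase (complex IV), had 1715 to 20167 counts of its own while Gm28661 had 160528 to 973710, so that the copy held 97.8% to 99.0% of both. For mt-Co3, another core subunit of complex IV, the copy held 88.0% to 92.1%. The copies held 62.8% to 85.2% for mt-Nd4l, 54.7% to 67.2% for mt-Nd3 and 43.4% to 70.1% for mt-Atp6, but 1.28% to 7.08% for mt-Co1, whose copy covers only its 3′ end. The split was not the same in every library: for mt-Atp6 the ratio of copy to gene ran from 0.767 in CKO 5 to 2.35 in flox 5, and for mt-Nd4l from 1.69 in CKO 5 to 5.77 in flox 5.

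mt-Co1, the catalytic subunit of complex IV, dominated the mitochondrial counts in every library. It held 63.3%, 62.4%, 63.1%, 66.3% and 67.5% of the counts on the 15 genes in flox 1 to 5 and, for CKO 1 to 5, 62.7%, 65.2%, 61.8%, 64.2% and 55.3%. Flox 1 and flox 4, with the highest totals, were not set apart on this measure, and CKO 5 was the lowest. With the copies added, mt-Co1 held 40.4% to 49.9%, mt-Co3 13.7% ± 1.26 (mean ± SD, n = 10) and mt-Co2 9.87% to 12.4%, so that the 3 complex IV mRNAs made up 67.3% to 73.4% of the total.

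The 7 complex I mRNAs together held 12.1% to 15.2% with the copies added and 16.7% to 20.9% as deposited. Among them mt-Nd1, part of the membrane arm at the quinone site, held 3.87% to 4.86%, and mt-Nd4, a proton-pumping subunit, 3.49% to 4.51%. mt-Nd5, another pumping subunit, held 1.92% to 2.98%, mt-Nd2 1.52% to 2.06% and mt-Nd6, the light-strand gene, 0.414% to 0.634%. The short mRNAs mt-Nd3 and mt-Nd4l held 0.490% to 1.23% and 0.0810% to 0.194%. mt-Cytb, cytochrome b and the sole mitochondrial subunit of complex III, held 4.91% to 6.59%, and the complex V mRNAs mt-Atp6 and mt-Atp8 held 5.02% to 8.09% and 0.0611% to 0.128%.

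Levels per length were taken from the authors' FPKM (fragments scaled by gene length and library size). Dividing counts by FPKM showed that the deposited values use an effective length. Over the mitochondrial genes with over 200 effective bases, it was the annotated length less a median of 287 to 320 bases, depending on the library. The 3 shortest mRNAs did not follow that difference. Their effective lengths were 2.25 to 4.24 bases for mt-Atp8, 20.9 to 33.0 for mt-Nd4l and 47.7 to 68.2 for mt-Nd3. These 3 were left out of the order because so small a divisor inflates FPKM. The other 12 genes had effective lengths of at least 100 bases.

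With the copies added, complex IV mRNAs and mt-Atp6 led the order per length. Geometric means over the 10 libraries were 45114 FPKM for mt-Co1, 36620 for mt-Co2, 34364 for mt-Co3 and 19652 for mt-Atp6. mt-Co1 was above mt-Co2 in 10 of 10 libraries, by 0.30 ± 0.18 on the log2 scale (SD), whereas mt-Co2 and mt-Co3 differed by 0.09 ± 0.17, within their spread. mt-Cytb and mt-Nd1 followed at 8420 and 7827 FPKM, 0.11 ± 0.13 apart, then mt-Nd4 at 4528. mt-Nd2 and mt-Nd6 lay at 2988 and 2908 FPKM and did not differ beyond their spread. The last 3, mt-Nd5, mt-Rnr1 and mt-Rnr2 at 1875, 1652 and 1563 FPKM, each differed from the next by less than their spread.

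The copies set the level of 3 genes in that order and the place of mt-Co2 and mt-Co3; mt-Atp6 was at rank 4 either way. As deposited, mt-Co2 was last of the 12 in every library, at a geometric mean of 484 FPKM, mt-Co3 stood at 3342 and mt-Atp6 at 7724. The 8 genes of the 12 that have no near-identical copy with counts keep the same values in both orders. Both rRNAs were at the low end of the order per length, in libraries that per the labels' protocols were enriched for mRNA, so this is no measure of rRNA in the tissue.

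**Figure D2:**
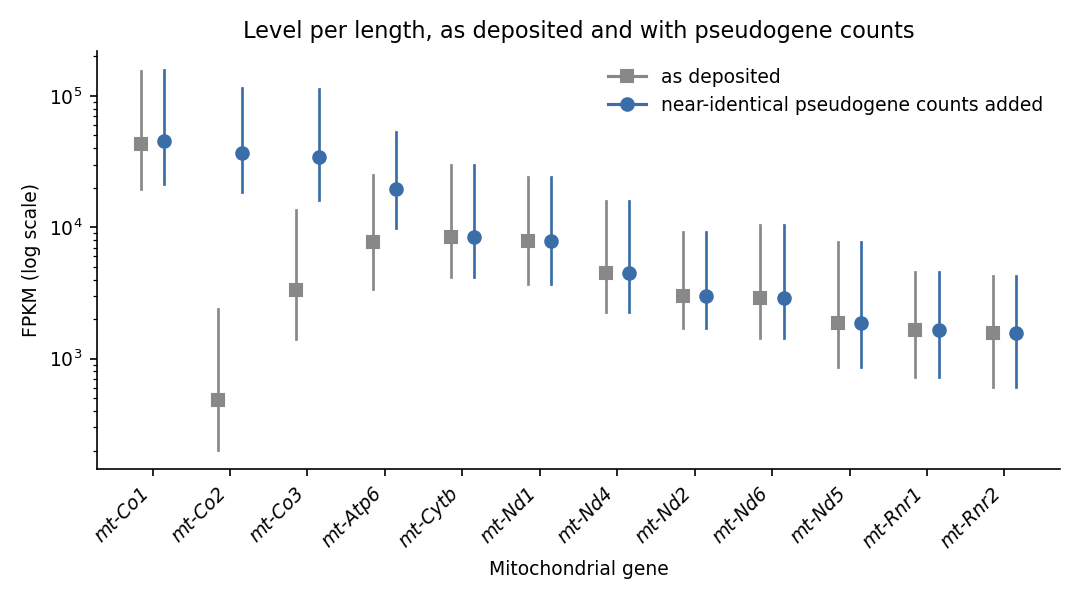
Level per length of 12 mitochondrial genes in FPKM (log axis): grey squares as deposited, blue circles with near-identical pseudogene counts added; markers are geometric means over 10 libraries and lines run from the lowest to the highest library. mt-Co2 moves from 484 to 36620 and mt-Co3 from 3342 to 34364, while the 8 genes without such a copy keep their level.

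The composition of the mitochondrial transcripts varied far less than their total. The log2 share of the library had an SD of 1.01 over the 10 libraries. The balance of a gene, its log2 ratio to the geometric mean of the 13 mRNAs of the same library, had a median SD over the mRNAs of 0.23 as deposited and 0.17 with the copies added. Among the mRNAs with the copies added, mt-Nd1, mt-Nd2 and mt-Co2 varied least (SD 0.08, 0.09 and 0.09) and mt-Nd4l and mt-Nd3 most (0.32 and 0.29). With the copies added, both rRNAs varied more than any mRNA (SD 0.39 for mt-Rnr1 and 0.48 for mt-Rnr2). As deposited, mt-Nd4l varied more than either rRNA (SD 0.51, against 0.37 for mt-Rnr1 and 0.45 for mt-Rnr2). There mt-Co2 (SD 0.39) also varied more than mt-Rnr1.

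The counts on the rRNAs were higher relative to those on the mRNAs in CKO than in flox. As the libraries were enriched for mRNA, this ratio is no measure of rRNA in the tissue. The summed ratio was not tested between the groups, only each rRNA by itself, as given below. For every 100 counts on the 13 mRNAs there were 3.34, 2.60, 3.56, 2.43 and 2.64 rRNA counts in flox 1 to 5 and, for CKO 1 to 5, 3.73, 3.81, 5.04, 5.95 and 6.53, so each CKO library lay above each flox library. With the copies added the values were 1.80 to 2.47 in flox and 2.60 to 4.34 in CKO, again without overlap. Among the flox libraries flox 4 was the lowest on this measure and flox 3 the highest, so flox 1 and flox 4 did not stand apart together.

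mt-Rnr1, the RNA of the small ribosomal subunit, had a balance of -0.60, -0.77, -0.34, -0.78 and -0.43 in flox 1 to 5 and, for CKO 1 to 5, -0.32, -0.05, -0.01, 0.41 and -0.17. All CKO libraries were above all flox libraries, by a narrow gap between CKO 1 and flox 3, and the mean difference was 0.56 (0.60 with the copies added, 0.49 without flox 1 and flox 4). mt-Rnr2, the RNA of the large subunit, was at 0.27, -0.04, 0.58, 0.09 and 0.39 in flox and 0.57, 0.56, 0.94, 1.32 and 1.20 in CKO. Its mean difference was 0.66, and flox 3 overlapped with CKO 1 and CKO 2. mt-Rnr1 was the only 1 of the 15 members whose groups did not overlap in balance. When set against the same 13 mRNAs, 47 of 14963 tested genes, or 0.314%, did so. That share is not a like background, because nuclear genes carry the swing of the mitochondrial total (SD 1.01 on the log2 scale). This swing cancels within the members. In CPM, the groups did not overlap for 2.18% of all tested genes. With library sizes taken from the 13 mRNAs, edgeR's quasi-likelihood test gave log2 fold changes of 0.69 for mt-Rnr1 and 0.83 for mt-Rnr2. The Benjamini-Hochberg adjusted p of that test was 0.437 and 0.436, neither past the threshold of 0.05. Because that fit draws on the spread of all tested genes, which carry the swing, it cannot decide whether the rRNAs shifted.

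**Figure D3:**
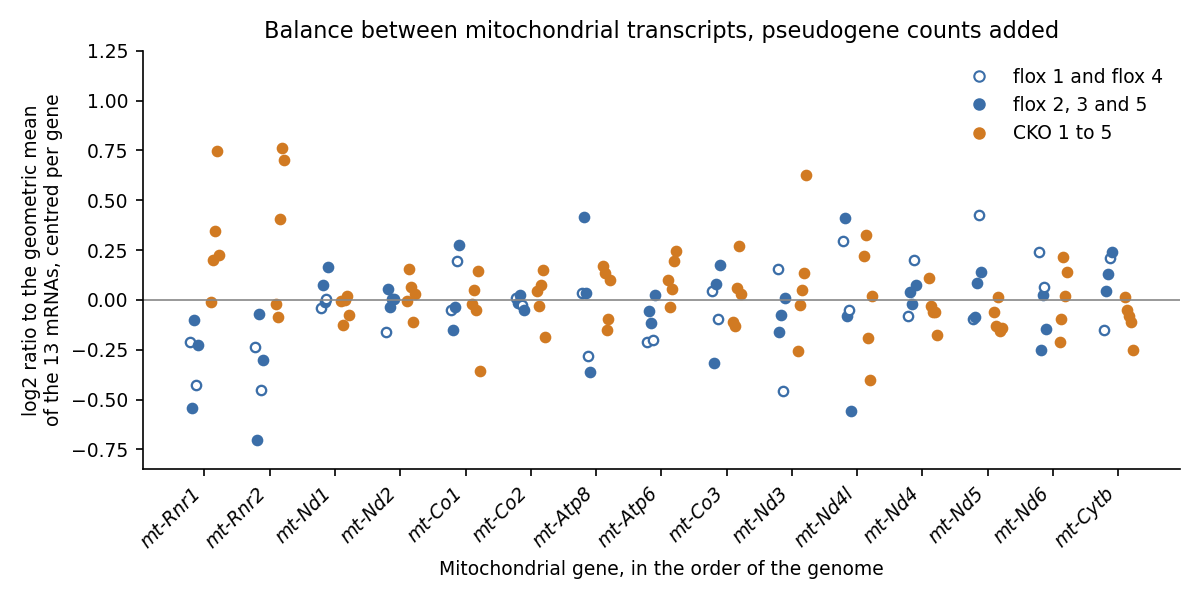
Balance of each of the 15 genes in every library: log2 ratio to the geometric mean of the 13 mitochondrial mRNAs, with pseudogene counts added and each gene centred on its mean. Open circles are flox 1 and flox 4, filled blue circles the other flox libraries, and orange circles CKO; for mt-Rnr1 the orange points all lie above the blue ones, and for the mRNAs the groups overlap.

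Ratios within a library do not depend on its scaling, and 5 pairs of neighbours or of genes at set places were tested by a two-sided exact permutation test, which over 252 splits can give no p below 0.00794. None passed after Benjamini-Hochberg adjustment over the 5. The log2 ratio of mt-Rnr2 to mt-Rnr1, cut from the same stretch of precursor, was 0.84 ± 0.07 in flox and 0.95 ± 0.27 in CKO (SD, n = 5 each; exact permutation p = 0.516, adjusted p = 0.516). CKO 5 was highest at 1.37 and CKO 2 lowest at 0.61, with all flox libraries between them. The log2 ratio of mt-Nd1 to mt-Cytb, the first and last mRNA after the heavy-strand promoter, was -0.53 ± 0.13 in flox and -0.41 ± 0.10 in CKO (exact permutation p = 0.167, adjusted p = 0.304).

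The log2 ratio of mt-Nd6 to mt-Nd5, neighbours made from opposite strands, was -1.86, -2.36, -2.26, -2.55 and -2.48 in flox 1 to 5 and, for CKO 1 to 5, -2.34, -2.16, -1.99, -2.02 and -1.91 (exact permutation p = 0.183, adjusted p = 0.304). Flox 1 was the highest of all libraries and the other 4 flox libraries were among the lowest 5. For the overlapping pairs the copies mattered. mt-Atp8 to mt-Atp6 differed between groups by -0.42 as deposited (exact permutation p = 0.111, adjusted p = 0.304) and by -0.16 with the copies added. mt-Nd4l to mt-Nd4 differed by 0.45 (exact permutation p = 0.270, adjusted p = 0.337) and by 0.07 with the copies added.

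In the comparison of CKO with flox, all 15 members had lower means in CKO and none passed the threshold. The median log2 fold change of the 15 was -1.93, against 0.00 over all 14963 genes tested. No gene of the table passed an adjusted p of 0.05 in edgeR's quasi-likelihood test (a background of 0%), and the members' adjusted p ran from 0.365 to 0.470. At an unadjusted p under 0.05 there were 12 members, all lower in CKO, where 13% of all genes passed in either direction and 7.91% in that direction. DESeq2 called 178 genes (1.19%) and no member, and limma voom called no gene. Below 0 were 15 of 15 members and 49.9% of all genes.

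mt-Co1 was at 287087, 25311, 54745, 321602 and 45875 CPM in flox 1 to 5 and, for CKO 1 to 5, at 35176, 23995, 27440, 78916 and 19247 CPM. Flox 1 and flox 4 lay far above the rest, CKO 4 came after them, and flox 2 was below 3 of the CKO libraries. The means were 146924 ± 144616 CPM in flox and 36955 ± 24166 in CKO (SD, n = 5 each). The log2 fold change was -1.99 ± 0.77 (SE), for which the edgeR adjusted p was 0.372. The ratio of CKO to flox was 0.252, with a 95% interval from 0.0787 to 0.804 that is not adjusted for the number of genes tested.

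The same libraries led for every member: flox 1 and flox 4 were the 2 highest libraries for 15 of the 15, and CKO 4 was next for 15 of the 15. No member's groups were free of overlap, where 2.18% of all tested genes were, 1.26% with CKO lower. For the 7 complex I mRNAs the log2 fold changes ran from -1.84 (mt-Nd3) to -2.17 (mt-Nd5). mt-Cytb stood at -2.06, the complex IV mRNAs mt-Co3 and mt-Co2 at -1.93 and -2.10, and the complex V mRNAs mt-Atp8 and mt-Atp6 at -1.82 and -1.45. The rRNAs had the values nearest to 0, at -1.19 ± 0.71 for mt-Rnr1 and -1.11 ± 0.72 for mt-Rnr2 (SE), with edgeR adjusted p of 0.446 and 0.470.

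**Figure D4:**
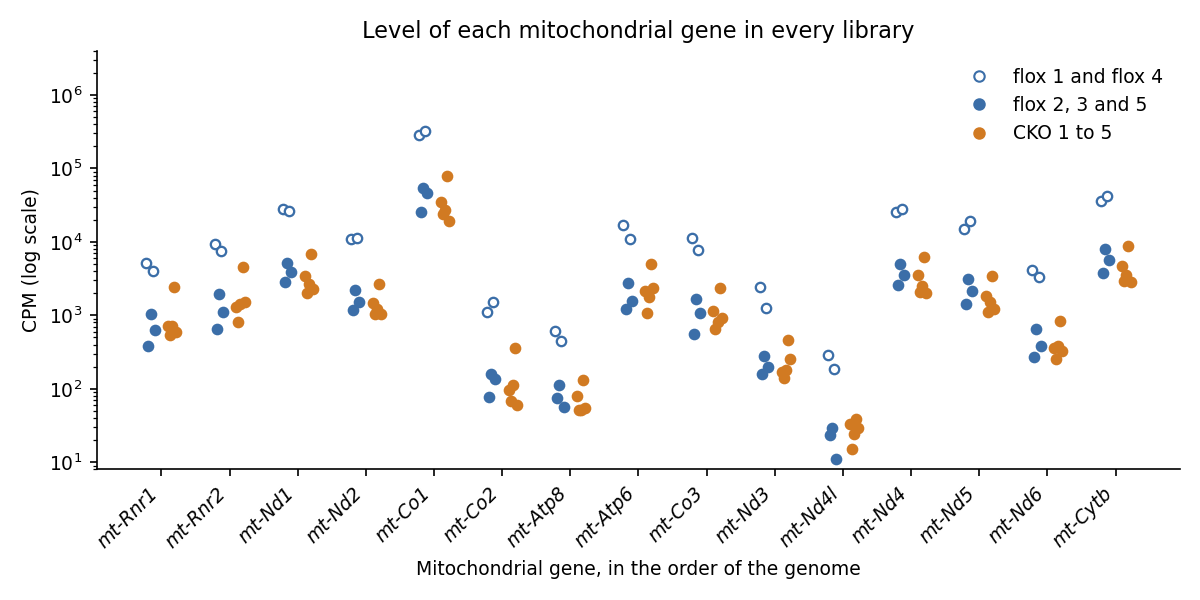
CPM (log axis) of each mitochondrial gene, in the order of the genome, in every library; open circles are flox 1 and flox 4, filled blue circles flox 2, 3 and 5, and orange circles CKO 1 to 5. For mt-Co1 the open circles are at 287087 and 321602 CPM and the other 8 libraries between 19247 and 78916, and the same 2 libraries are highest for all 15 genes.

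mt-Rnr1 was at 5182, 386, 1031, 4068 and 633 CPM in flox 1 to 5 and, for CKO 1 to 5, at 708, 535, 725, 2399 and 594 CPM. mt-Rnr2 was at 9466, 642, 1953, 7443 and 1117 CPM in flox and at 1308, 815, 1405, 4504 and 1537 CPM in CKO. For both rRNAs flox 2 was the lowest of all 10 libraries and CKO 4 was above 3 of the 5 flox libraries. mt-Nd5, the member with the most negative fold change, was at 14911, 1404, 3111, 19476 and 2160 CPM in flox and at 1816, 1127, 1529, 3410 and 1222 CPM in CKO, where the 4 lower CKO libraries all lay below flox 5. mt-Nd4l, the member with the lowest level, was at 108 ± 125 CPM in flox and 27.9 ± 8.86 in CKO (SD, n = 5 each).

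The size of the difference depended on flox 1 and flox 4, which stand out by the mitochondrial share itself. Leaving both out lowers only the flox group, since CKO 4, the highest CKO library, was kept. Without CKO 4 alone the median was -2.34, and 15 members had an unadjusted edgeR p under 0.05, all lower in CKO. In that direction 1585 of 15239 genes did so, and no gene passed the adjusted threshold. Without flox 1 and flox 4, 7 members had a log2 fold change above 0 and 8 below. Their median was -0.00, with a range from -0.35 for mt-Cytb to 0.64 for mt-Rnr2. In that fit no gene passed the adjusted threshold in edgeR, and no member had an unadjusted p under 0.05, where 6.41% of 15628 genes did. No member's groups were free of overlap, where 4.61% of genes were. The 95% interval of the ratio of CKO to flox was 0.426 to 1.85 for mt-Co1, 0.429 to 1.44 for mt-Cytb and 0.638 to 3.83 for mt-Rnr2, and it included 1 for each of the 15. With the copies added and both libraries left out, the median was -0.11, with 4 members above 0 and 11 below.

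**Figure D5:**
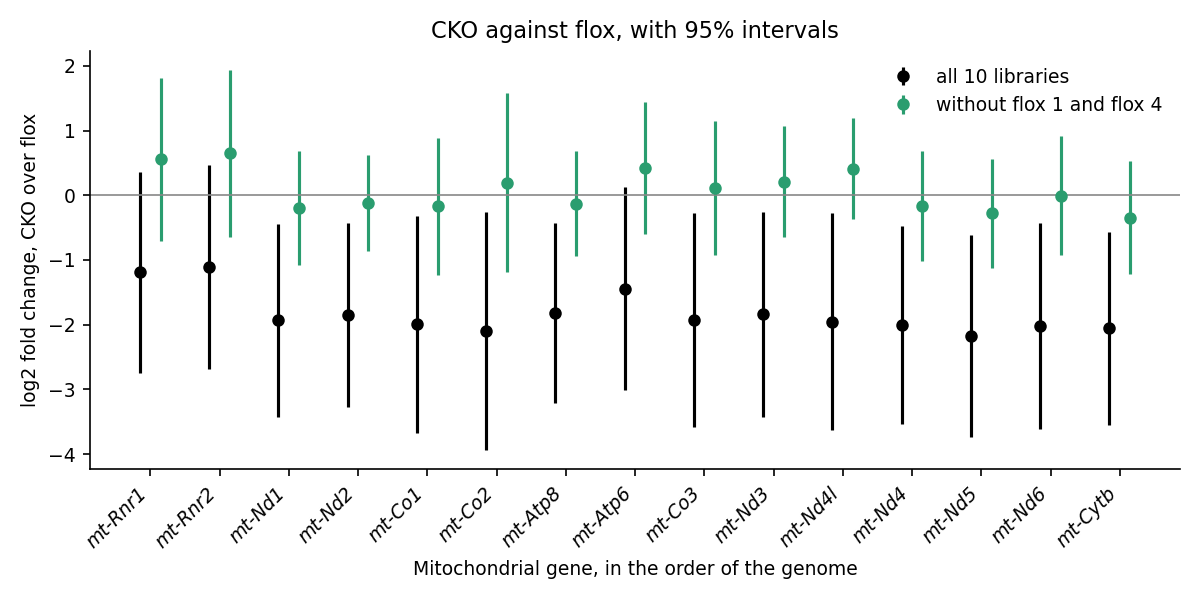
Log2 fold change of CKO over flox with 95% intervals from edgeR for each mitochondrial gene, with all 10 libraries (black) and without flox 1 and flox 4 (green). The intervals are not adjusted for the number of genes tested. The black points lie between -2.17 and -1.11, and the green points between -0.35 and 0.64 with every interval spanning 0.

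Nuclear genes that copy and transcribe mitochondrial DNA had like levels in libraries of high and of low mitochondrial share. The 19 tested genes of mitochondrial DNA transcription and replication, such as Tfam, which packs mitochondrial DNA and starts its transcription, and Polg, its polymerase, had a median log2 fold change of 0.06 and 0 calls by edgeR, with 1 at an unadjusted p under 0.05, which 13% of all tested genes reached; DESeq2 called none of them, nor of any list of nuclear mitochondrial genes below. Their summed level was 267 CPM in flox 1 and 241 in flox 4, inside the 236 to 273 CPM of the other 8 libraries. Tfam was at 29.2 ± 4.66 CPM in flox and 30.4 ± 3.18 in CKO, and Polg at 54.6 ± 3.81 and 56.6 ± 7.49 (SD, n = 5 each). Rnaseh1, which removes RNA from RNA-DNA hybrids, was at 5.30 ± 1.37 and 7.41 ± 1.01 CPM with an edgeR adjusted p of 0.377.

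The 33 genes of mitochondrial RNA processing and stability had a median log2 fold change of 0.01, with 0 calls by edgeR and 2 lower in CKO at an unadjusted p under 0.05. Their summed level was 1011 CPM in flox 1 and 925 in flox 4, above the 801 to 865 CPM of the other 8 libraries. The 2 were Tbrg4, an RNA-binding protein of the FASTK family (-0.33 ± 0.11 SE, edgeR adjusted p 0.365), and Rpusd3, a pseudouridine synthase of mitochondrial RNA (-0.45 ± 0.19, edgeR adjusted p 0.375). The 30 translation factors and transfer RNA synthetases had a median of -0.08, 0 calls and 4 at an unadjusted p under 0.05, of which 3 were lower: Sars2, the seryl-tRNA synthetase (-0.60), Fars2, the phenylalanyl-tRNA synthetase (-0.49), and Oxa1l, which inserts mitochondrial proteins into the inner membrane (-0.43). The 4 of 30 are about the share of all genes tested, 13%. Without flox 1 and flox 4 the 3 fold changes were -0.33, -0.10 and -0.17 in the same order. Their summed level was 1177 CPM in flox 1, 1107 in flox 4 and 891 to 1022 elsewhere. The 12 biogenesis regulators had a median of 0.17, 0 calls and 3 at an unadjusted p under 0.05. Among those were Ppargc1a, a coactivator of mitochondrial biogenesis, with a log2 fold change of 0.52 ± 0.21 (SE, edgeR adjusted p 0.374), and its relative Ppargc1b with -0.38 ± 0.16 (edgeR adjusted p 0.376). In none of these 4 lists was there a gene whose groups did not overlap, where 2.18% of all tested genes were free of overlap.

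The nuclear partners of the mitochondrial subunits had higher summed levels in the libraries of high mitochondrial share. Nuclear complex I subunits summed to 8800 CPM in flox 1, 6434 in flox 4 and 3685 to 5655 elsewhere. For complex III the sums were 5812, 4308 and 2387 to 3666, for complex IV 8683, 6420 and 3235 to 6035, and for complex V 12121, 9438 and 6439 to 8579 CPM. Complex II, which has no mitochondrially encoded subunit, was at 1286 and 1129 CPM against 1035 to 1266, so flox 1 was above the other libraries by a small margin and flox 4 within them.

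None of the nuclear subunits passed in edgeR's quasi-likelihood test between the groups. Median log2 fold changes were -0.26 for 36 subunits of complex I, -0.01 for 4 of complex II, -0.25 for 9 of complex III, 0.03 for 12 of complex IV and -0.23 for 15 of complex V. At an unadjusted p under 0.05 there were 3 in complex I (Ndufa10 at -0.63, Ndufs3 at -0.83 and Ndufa1 at 0.37), 1 in complex III (Uqcrc1 at -0.36), 1 in complex IV (Cox7b at 0.30), and 0 in complexes II and V, where 13% of all tested genes reached it. Without flox 1 and flox 4, Ndufa10 stood at -0.17, Ndufs3 at -0.10 and Uqcrc1 at -0.19, and Ndufa1 and Cox7b at 0.47 and 0.30. Without flox 1 and flox 4 the medians were 0.27, 0.05, 0.30, 0.29 and 0.23 for complexes I to V, so that all but complex IV changed sign. In that fit 11 of 36 complex I, 1 of 9 complex III and 5 of 12 complex IV subunits had an unadjusted edgeR p under 0.05. All of these were higher in CKO. There were 0 in complexes II and V, 6.41% of all genes reached it, and no subunit passed the adjusted threshold. The mitochondrial members of those complexes had a median of -0.12 over the 13 mRNAs in that fit.

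Some marker sums also set flox 1 and flox 4 apart from the other 8 libraries. Nuclear-retained RNAs, of which Malat1 and Neat1 are the most abundant, summed to 391 CPM in flox 1, 443 in flox 4 and 574 to 1043 elsewhere. Stem cell markers were lowest in the same libraries, at 676 and 667 CPM with 760 to 1096 elsewhere. B and plasma cell markers, of which 6 of 9 were tested and summed, were highest there, at 14.1 and 16.7 CPM with 4.77 to 11.1 elsewhere. Of the 5 adipocyte markers only 2, Lipe and Cidec, were tested and summed. Their sum was also highest there, at 22.5 and 23.2 CPM with 7.78 to 19.7 elsewhere, and is no measure of fat cells.

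Other marker lists differed between the groups without setting these libraries apart. Goblet cell markers were below 0 in log2 fold change for 11 of 12, at 27498 to 42755 CPM in flox and 14336 to 26138 in CKO without overlap, and their median was -0.72 with all libraries and -0.57 without flox 1 and flox 4. Fibroblast and muscle markers were above 0 for 10 of 10 tested, at 23.8 to 84.3 CPM in flox and 60.0 to 237 in CKO, with flox 1 at 67.4 and flox 4 at 23.8. Erythrocyte markers were above 0 for 4 of 4, at 8.39 to 61.8 and 19.9 to 178 CPM, and Hbb-bs, a globin gene, went from 1.59 to 2.10 without both libraries. No gene of these lists passed in edgeR.

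DESeq2 called 2 goblet cell genes, Muc2 and Retnlb, and 1 endothelial gene, Vwf, the von Willebrand factor. Vwf was at 6.49 ± 0.564 CPM in flox and 3.57 ± 0.487 in CKO (SD, n = 5 each) without overlap, with a DESeq2 adjusted p of 0.000324 and an edgeR adjusted p of 0.174. At 0 in 5 or more libraries were Slc4a1 (erythrocytes), Sox10 (glia), Cdh5 (endothelium), Mzb1 (plasma cells), Adipoq and Plin1 (adipocytes) and Olfm4 from the stem cell list. The part of cell makeup and of RNA quality in the mitochondrial shares was not tested.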

How the data were processed

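RNA was measured in 10 mouse colon crypt libraries, 5 labelled flox and 5 labelled CKO; groups and replicate numbers were taken from the sample titles. Per the labels' protocols, libraries were made with a TruSeq RNA kit that enriches mRNA. The submitters' processing notes name fastp and HISAT2, without versions. For the genome build, annotation, counting tool, strand setting and handling of reads that match several places, the entry is "not given in the sources used here"; no coordinates are therefore printed. The authors deposited raw counts per Ensembl gene ID, and a second deposited table holds the authors' FPKM, in which 44 to 80 genes per library have 0 counts and an FPKM above 0. A symbol from GENCODE M21 (GRCm38) was matched for 26095 of 33632 IDs.

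Counts were tested over the whole table with edgeR 4.0.16 in R 4.3.3: filterByExpr (14963 genes), trimmed mean of M values, robust quasi-likelihood fit with the group as the only term, Benjamini-Hochberg adjustment and a threshold of 0.05. CPM are counts scaled by the normalized library size, and log2 fold changes are CKO over flox. No p was computed over the members alone or for their sums. The 5 ratios were compared by exact permutation. No 2 libraries agreed within sampling noise (lowest chi-square per degree of freedom 30.0).

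Copies were found by aligning GENCODE transcripts with blastn. FPKM with copies added was the summed count over the gene's effective length, itself inferred from the deposited counts and FPKM. Alternatives were other scalings, DESeq2 1.42.0, limma 3.58.1 (voom, and log2(FPKM + 1) or log2(FPKM + 0.1)), other filters, the replicate number as a block, each library left out, flox 1 and flox 4 left out, and the copies added (chosen after the data were seen). The members are all mt- genes. Of each pathway list the 3 genes with the smallest p, and of each cell type or RNA list the 2 with the highest level, could be named. Tfam and Polg were named outside that rule. Markers at 0 and those called by DESeq2 were named after their values were seen. Members and lists were chosen with earlier results of these data known.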

Additional observations from a re-analysis of the deposited data

Results flagged for a closer look

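The mitochondrial share of CKO 4, 11.8%, lay far from the 4.30% to 6.38% of the other 4 CKO libraries. The gap was 0.723 of the range of the group, above Dixon's critical value of 0.71 for 5 values. The same library lay as far from the others in CPM of 7 of the 15 members, with gaps of 0.898 of the range for mt-Rnr1 (2399 against 535 to 725 CPM), 0.804 for mt-Rnr2, 0.721 for mt-Nd1, 0.758 for mt-Nd2, 0.733 for mt-Co1, 0.833 for mt-Co2 and 0.777 for mt-Nd6. Among the flox libraries, flox 2 had the highest log2 ratio of mt-Atp8 to mt-Atp6, -4.03 against -4.79 to -4.60, a gap of 0.741. In all, 44 groups of 5 were checked and 9 passed; chance passes about 1 in 20 groups, and the measures of 1 library are not independent of each other. The high values of flox 1 and flox 4 are not among them, because the check looks for a single distant library.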

How the results depend on the processing

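No member passed the threshold under any of 25 alternatives, where the lowest adjusted p was 0.117, and no ratio did in 75 values, where it was 0.0794. For the ratios, the replicate block flipped the signs of differences between same-numbered libraries. That test can give no p below 0.0625, so its values could not pass. Without flox 1 and flox 4, the exact permutation test can give no p below 0.0179. Of 375 log2 fold changes of members, 353 kept their sign and 22 turned positive. With library sizes from the 13 mRNAs these were 0.69 (mt-Rnr1) and 0.83 (mt-Rnr2), which are not among the 13, and, for mRNAs that this scaling centres near 0 by construction, 0.0076 (mt-Nd1), 0.14 (mt-Nd2), 0.11 (mt-Atp8), 0.60 (mt-Atp6), 0.22 (mt-Co3), 0.33 (mt-Nd3), 0.0030 (mt-Nd4), 0.12 (mt-Nd6) and 0.39 (mt-Nd4l). Without flox 1 and flox 4 they were 0.55 (mt-Rnr1), 0.64 (mt-Rnr2), 0.19 (mt-Co2), 0.42 (mt-Atp6), 0.11 (mt-Co3), 0.21 (mt-Nd3) and 0.41 (mt-Nd4l), and with the copies added as well 0.55 (mt-Rnr1), 0.65 (mt-Rnr2), 0.0855 (mt-Atp6) and 0.0779 (mt-Nd3). The share of counts differed by -0.57 points without both, and by -11.5 to -5.43 with 1 library left out.

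Genes called over the table were 0 in edgeR, 178 with DESeq2, 3 with no filter, 1 with sizes from the 13 mRNAs (which moved the median of all genes to 0.95), and 0 to 2 with 1 library left out (2 without flox 2); the cause was not tested. Unscaled totals moved the median of all genes to 0.36 and that of the members to -1.19. The log2 ratio of mt-Rnr2 to mt-Rnr1 ran from -0.0033 to 0.19 with 1 library left out, the former without CKO 5. Replicate numbers did not pair the libraries (correlations of same-numbered deviations -0.30, 0.28, 0.09, 0.40 and -0.06). With the replicate block, 0 genes and 0 members were called, the members' median was -1.28, and 9 members had an unadjusted p under 0.05, against 12 without it.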
